A study of Mus musculus with 9 samples.

Results

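The 33 genes described here encode the enzymes that break down valine, leucine and isoleucine, the branched-chain amino acids, with the kinase and the phosphatase that set the activity of the pathway's committed step. They were chosen by gene symbol from the known pathway, in the order of its steps, out of 55401 entries in the deposited table. Of the 33 symbols, 32 matched a gene name of the table and Mut matched under its current name Mmut. The table's own KEGG pathway terms place 31 of the 33 in this pathway. The kinase Bckdk and the phosphatase Ppm1k carry no such term. Of the 33 genes, 32 passed the minimum of a mean of 1 FPKM (fragments per kilobase of gene, scaled to the size of the library) over all libraries. The gene below it, Bcat1, averaged 0.199 FPKM. Every tested gene had a mean of at least 1.7 FPKM in each of the 3 groups, so none passed through 1 group alone.

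Stranded poly(A) RNA libraries were made from mouse colonic tissue, 9 in all, and each carries the genotype label WT. Berberine, a plant alkaloid, was the treatment of 3 libraries, a high-fat diet with AOM/DSS that of another 3, and a chow diet with AOM/DSS that of the last 3. AOM/DSS is not spelled out in the labels; in mouse work it usually means the carcinogen azoxymethane followed by dextran sulfate sodium, which injures the colon lining, a model of tumours that arise with colitis. Neither the diet of the berberine group nor its AOM/DSS status is in the labels, and neither is the age of the mice or whether each library came from its own animal. All p-values therefore measure the spread between libraries, which may in part be technical.

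In this pathway an aminotransferase, Bcat1 in the cytosol or Bcat2 in mitochondria, first moves the amino group off each branched-chain amino acid. The branched-chain ketoacid dehydrogenase complex then removes carbon dioxide and joins the remainder to coenzyme A, an irreversible step that Bckdk blocks by phosphorylation and Ppm1k restores. Separate branches lead leucine to acetyl-CoA and ketone bodies, valine to propionyl-CoA, and isoleucine to both acetyl-CoA and propionyl-CoA, and the last enzymes turn propionyl-CoA into succinyl-CoA for the citric acid cycle. Several of the acyl-CoA enzymes also serve the oxidation of short-chain fatty acids, of which butyrate is a main fuel of the colonic epithelium.

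Many genes downstream of transamination were lower in the high-fat diet libraries than in chow, and many were higher in the berberine libraries than in high-fat diet. Of the 32 tested genes, 17 fell and 0 rose in high-fat diet against chow by edgeR's quasi-likelihood test at an adjusted p under 0.05. That is 53.1% of them, where 16.6% of all 14506 tested genes fell and 15.2% rose. At an unadjusted p under 0.05 the counts were 21 lower and 1 higher, the higher one being Aldh7a1, where 22.3% of all tested genes were lower and 20.8% higher. DESeq2 called 20 lower and 1 higher, and of all genes 20.4% lower and 18.1% higher. The median log2 fold change of the 32 was -0.59, against 0.002 for all genes tested, and the range was -3.13 to 0.46. For 16 of the 32 every high-fat diet library lay below every chow library in FPKM, as 18.0% of all tested genes did. The reverse held for 1 of the 32, Aldh7a1, and the share of all tested genes in that direction was not taken.

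In berberine against high-fat diet 15 of the 32 genes rose and 1, Aldh7a1, fell, again by edgeR's quasi-likelihood test. These are 46.9% and 3.12% of the 32, where 15.8% of all tested genes rose and 14.9% fell. The median log2 fold change was 0.54 for the 32 genes, against -0.007 for all, and the range was -0.73 to 3.44. Every berberine library lay above every high-fat diet library for 22 of the 32 genes, as for 20.7% of all tested genes. The reverse held for 4 of the 32, Bckdha, Bckdk, Mccc2 and Aldh7a1, and the share of all tested genes in that direction was not taken. These counts and those of high-fat diet against chow share the 3 high-fat diet libraries, so they do not stand as independent results. Each comparison's own values are given side by side for the genes described, and whether a gene's response differed between the comparisons was not tested.

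Berberine against chow gave 0 calls among the 32 genes with edgeR, 0 with DESeq2 and 0 at an unadjusted p under 0.05. Across all tested genes edgeR called 0.0483% (7 genes) in this comparison, DESeq2 called 380 genes, and 10.9% had an unadjusted p under 0.05 in edgeR. The 32 log2 fold changes ran from -0.46 for Acads to 0.54 for Oxct1, with a median of -0.07, against -0.002 for all genes tested. Oxct1 was the 1 gene whose berberine libraries all lay above chow in FPKM, as 9.24% of all tested genes did. Acads and Aldh6a1 were the 2 whose berberine libraries all lay below it, as 7.99% of all tested genes did. A missed threshold with 3 libraries a group does not show that the levels were alike.

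**Figure D1:**
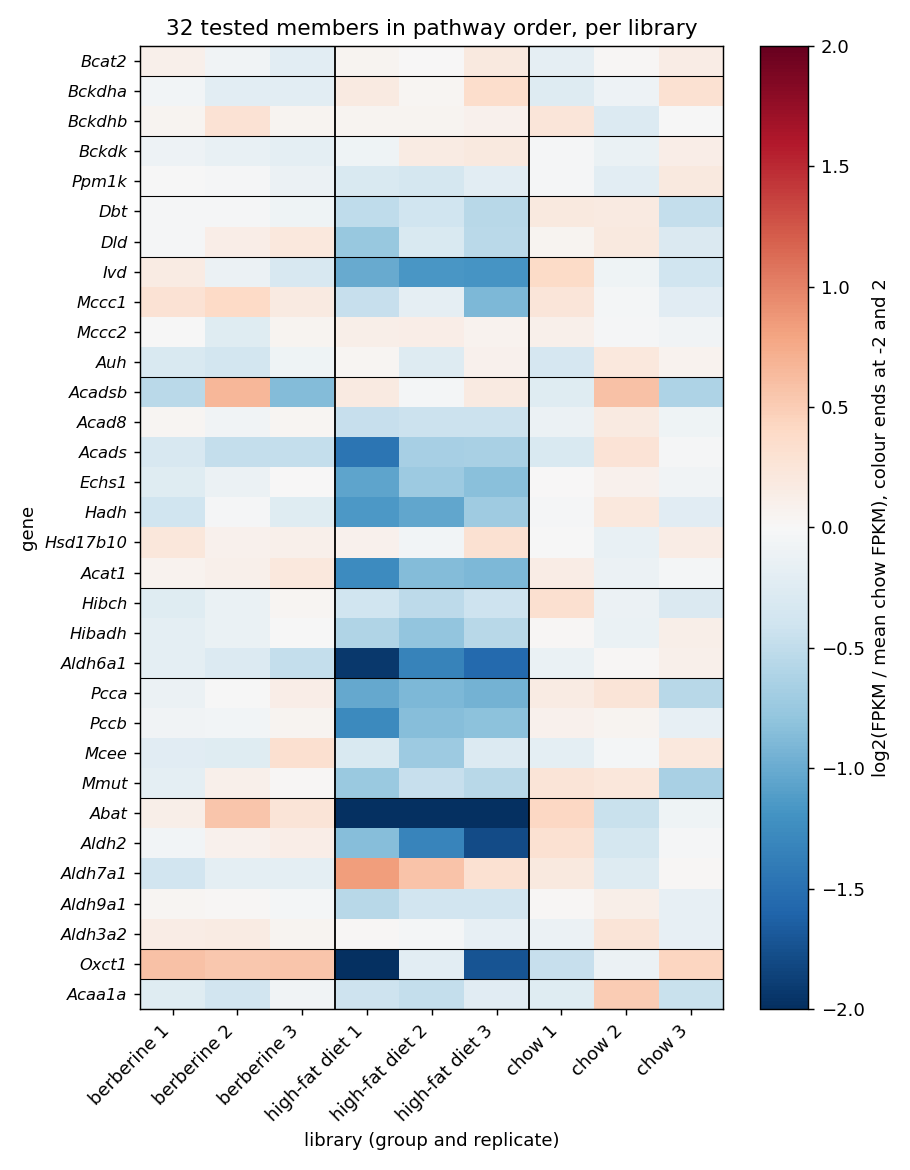
Heat map of log2(FPKM divided by the gene's mean FPKM in the chow libraries) for the 32 tested genes in pathway order (down) in each of the 9 libraries (across), with lines between steps; colour ends at -2 and 2. The 3 high-fat diet columns are blue for most genes below Bckdk and Ppm1k, while Bcat2, Bckdha, Bckdhb, Mccc2 and Hsd17b10 stay near white in all 9.

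All 9 libraries held the general epithelium marker genes, whose summed level was 4580 to 5180 FPKM in berberine, 4100 to 5410 in high-fat diet and 4420 to 5380 in chow. Markers of absorptive colonocytes summed to 1060 to 1550 FPKM in berberine, 180 to 326 in high-fat diet and 1640 to 5830 in chow. All 10 of them fell in high-fat diet against chow, and 9 of the 10 rose in berberine against high-fat diet. Of all tested genes, 16.6% fell and 15.2% rose in the first comparison, and 15.8% rose and 14.9% fell in the second. The same shares stand beside the counts of the lists that follow. Goblet cell markers summed to 6380 to 10300 FPKM in berberine, 484 to 2310 in high-fat diet and 5590 to 7530 in chow, with 6 of 8 lower in high-fat diet against chow and 6 of 8 higher in berberine against high-fat diet. Smooth muscle markers summed to 1400 to 1650 FPKM in berberine, 557 to 2500 in high-fat diet and 2730 to 3990 in chow. Of these 7 markers, 3 fell in high-fat diet against chow, and 0 rose or fell in berberine against high-fat diet. High-fat diet replicate 3, at 2500 FPKM, stood above replicates 1 and 2, at 557 and 861. Of the smaller lists, all 3 B cell and both tested T cell markers fell in high-fat diet against chow and rose in berberine against high-fat diet, as did 2 of 3 endothelial markers, while both neutrophil and all 3 mast cell markers moved the opposite way. Among 5 fibroblast markers, 1 fell in the first comparison and 1 rose in the second. Markers of macrophages (3 tested), enteric neurons and glia (2 tested) and squamous epithelium (4 tested) gave 0 calls in both. No marker of these lists was at 0 in all libraries. Their part in the results on the pathway was not tested, and in bulk tissue fewer cells of a type and less RNA per cell cannot be told apart.

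Some libraries stood apart from others of their group by markers of other tissue. Striated muscle markers summed to 501 FPKM in chow replicate 3 and to at most 19.3 elsewhere, and adipocyte markers to 371 and 276 FPKM in berberine replicates 1 and 2 against 5.5 to 60.2 in all others. Squamous epithelium markers summed to 119 FPKM in chow replicate 1 and to 24.6 to 69 in high-fat diet. In the berberine libraries and chow replicates 2 and 3 they summed to 0.711 to 9.16 FPKM. Mast cell markers summed to 178 to 3530 FPKM in high-fat diet against at most 8.9 elsewhere. Without chow replicate 3 there were 18 lower genes among the 32 in high-fat diet against chow, and with chow replicates 2 and 3 both left out there were 12. Chow replicate 2 was left out there because its absorptive markers summed to 5830 FPKM, against 2170 and 1640 in chow replicates 1 and 3. Most of that sum came from Car1 and Cyp2c55, at 2960 and 1390 FPKM. They had 490 and 363 FPKM in chow replicate 1 and 204 and 150 in chow replicate 3. Other absorptive markers did not all follow: Aqp8 had 396 FPKM in chow replicate 2, against 320 and 398 in chow replicates 1 and 3. With berberine replicates 1 and 2 both left out, 7 of the 32 were higher and 0 lower in berberine against high-fat diet, and 1321 genes were called across the whole table, against 4460 with all libraries. The first principal component, with 58.1% of the variance, set the 3 high-fat diet libraries (73.3 to 79.5) apart from the other 6 (-40.8 to -34.2).

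The aminotransferases that start the pathway gave no call. Bcat2, the mitochondrial aminotransferase, had 13.9, 12.3 and 11.2 FPKM in the berberine libraries, 13.4, 13.0 and 14.8 in high-fat diet and 11.4, 13.1 and 14.3 in chow. The 3 groups overlapped throughout, and its log2 fold change was -0.04 ± 0.14 (SE) in high-fat diet against chow. Bcat1, the cytosolic enzyme, had 66 to 275 estimated counts per library and fell below the filter. Tested with no filter, its log2 fold change was -0.02 in high-fat diet against chow (edgeR adjusted p = 1) and 0.68 in berberine against high-fat diet (edgeR adjusted p = 0.402). Its FPKM was 0.0208 ± 0.00927 of that of Bcat2 in berberine, 0.0128 ± 0.00681 in high-fat diet and 0.013 ± 0.00472 in chow (SD, n = 3 each).

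Of the 4 genes of the dehydrogenase complex, Dbt and Dld fell in high-fat diet against chow and Dld rose in berberine against high-fat diet. Bckdha and Bckdhb encode the subunits of the decarboxylase component. Bckdha had 26.3, 23.7 and 23.8 FPKM in berberine, 31.2, 28.3 and 34.9 in high-fat diet and 23.0, 25.4 and 33.8 in chow. Bckdhb stayed between 9.65 and 14.3 FPKM in all 9 libraries. Neither passed the test in any comparison, although each berberine value of Bckdha lay below each high-fat diet value, at a log2 fold change of -0.26 ± 0.16 and an adjusted p of 0.255 (edgeR). Dld, the dihydrolipoamide dehydrogenase that several mitochondrial complexes share, had 40.9, 45.7 and 47.9 FPKM in berberine, 24.7, 33.5 and 28.7 in high-fat diet and 43.4, 47.4 and 34.0 in chow. All high-fat diet values of Dld lay below all others. Its log2 fold change was -0.65 ± 0.18 in high-fat diet against chow (edgeR adjusted p = 0.0224) and 0.73 ± 0.18 in berberine against high-fat diet (edgeR adjusted p = 0.0147).

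Dbt encodes the transacylase core that passes the acyl group to coenzyme A. It had 7.53, 7.6 and 7.24 FPKM in berberine, 5.4, 5.81 and 5.22 in high-fat diet and 8.79, 8.73 and 5.54 in chow. Chow replicate 3 was among the high-fat diet values and the other chow libraries were above them. The log2 fold change of Dbt in high-fat diet against chow was -0.62 ± 0.19 (edgeR adjusted p = 0.0373), and in berberine against high-fat diet it was 0.54 ± 0.19 (edgeR adjusted p = 0.0594). Both values lay near the threshold. The first lost its call in 8 of 9 repeats that left out 1 library, all but the one without chow replicate 3, with adjusted p up to 0.113 and log2 fold changes of -0.65 to -0.47. The second passed without chow replicate 2 (edgeR adjusted p = 0.0489) or chow replicate 3 (edgeR adjusted p = 0.00857), and with all libraries by DESeq2 (adjusted p = 0.0335) or when the 2 groups were fitted alone (edgeR adjusted p = 0.0175). The call of Dld in high-fat diet against chow was lost without chow replicate 1, chow replicate 2, high-fat diet replicate 1 or high-fat diet replicate 3, at edgeR adjusted p of 0.0529 to 0.069 and log2 fold changes of -0.66 to -0.50.

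Neither regulator of the complex passed edgeR's test. Bckdk, the inactivating kinase, had 14.0, 13.5 and 13.1 FPKM in berberine, 14.2, 16.8 and 17.1 in high-fat diet and 14.8, 13.7 and 16.4 in chow. Ppm1k, the activating phosphatase, had 2.32, 2.31 and 2.15 FPKM in berberine, 1.9, 1.84 and 2.02 in high-fat diet and 2.31, 2.02 and 2.69 in chow. Its log2 fold change was -0.40 ± 0.15 in high-fat diet against chow (edgeR adjusted p = 0.0747) and 0.33 ± 0.15 in berberine against high-fat diet (edgeR adjusted p = 0.132). DESeq2 called both changes of Ppm1k, at adjusted p of 0.0127 and 0.0493. The kinase stood above the phosphatase in every library, by an FPKM ratio of 5.99 ± 0.136 in berberine, 8.36 ± 0.81 in high-fat diet and 6.43 ± 0.356 in chow (SD, n = 3 each). Every high-fat diet ratio was above every other ratio. The exact two-sided permutation test gave p = 0.1 for high-fat diet against chow and for berberine against high-fat diet, the smallest that 3 against 3 libraries allow, and 0.3 when adjusted over 15 ratio tests.

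**Figure D2:**
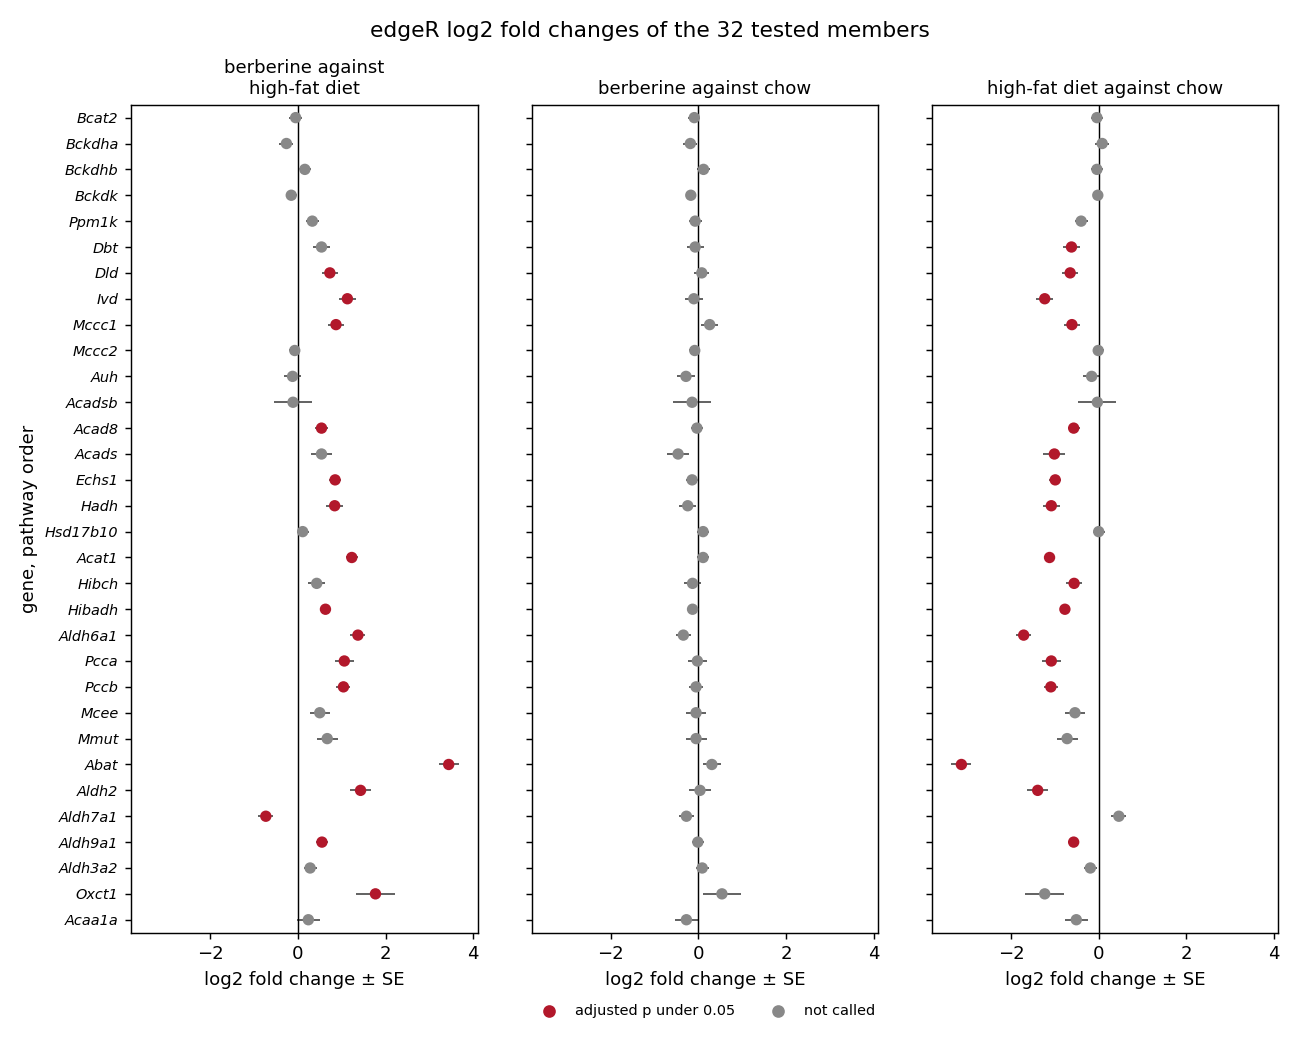
Log2 fold changes (edgeR, across) with SE for the 32 tested genes in pathway order (down), in berberine against high-fat diet, berberine against chow and high-fat diet against chow; red marks an adjusted p under 0.05. Red points lie right of 0 in the first panel except Aldh7a1 at -0.73 and left of 0 in the third, and the middle panel has no red point.

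Of the 4 genes of the leucine branch, Ivd and Mccc1 passed the test in both comparisons with high-fat diet, and Mccc2 and Auh in neither. Ivd, isovaleryl-CoA dehydrogenase and the branch's first enzyme, had 6.89, 5.64 and 4.94 FPKM in berberine, 3.07, 2.73 and 2.71 in high-fat diet and 8.0, 5.78 and 4.66 in chow. No high-fat diet value reached any other. Ivd fell 2.35-fold in high-fat diet against chow, a log2 fold change of -1.23 ± 0.20 (edgeR adjusted p = 0.00285), and rose 2.19-fold in berberine against high-fat diet, 1.13 ± 0.20 (edgeR adjusted p = 0.00416). Auh, the hydratase of the branch that also binds RNA, lay between 2.23 and 3.34 FPKM in all libraries and passed no test.

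Mccc1 and Mccc2 encode the biotin-carrying and the carboxyltransferase subunit of methylcrotonyl-CoA carboxylase, which need each other. Mccc1 had 2.89, 3.14 and 2.67 FPKM in berberine, 1.73, 2.1 and 1.27 in high-fat diet and 2.79, 2.31 and 2.02 in chow. Mccc2 had 7.1, 6.03 and 7.41 FPKM in berberine, 7.74, 7.84 and 7.48 in high-fat diet and 7.61, 7.01 and 6.76 in chow. Mccc1 thus had its highest mean in berberine, where its values overlapped those of chow, while Mccc2 had its highest mean in high-fat diet. Mccc1 rose 1.83-fold in berberine against high-fat diet, a log2 fold change of 0.87 ± 0.19 (edgeR adjusted p = 0.00978), where Mccc2 had -0.07 ± 0.13 (edgeR adjusted p = 0.738). In high-fat diet against chow Mccc1 had a log2 fold change of -0.61 ± 0.19 (edgeR adjusted p = 0.039), a call that held in 2 of 9 repeats leaving out 1 library, those without chow replicate 3 or high-fat diet replicate 2. In the other 7 the log2 fold change was -0.62 to -0.44. The FPKM ratio of Mccc1 to Mccc2 was 0.429 ± 0.0827 in berberine, 0.22 ± 0.0489 in high-fat diet and 0.332 ± 0.0342 in chow (SD, n = 3 each). This ratio was chosen after the values were seen, and its exact permutation p was 0.1 both for berberine against high-fat diet and for high-fat diet against chow.

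Promoter windows of RefSeq (build GRCm38.p6), each 300 bases around a transcript start, were read for 27 of the 33 genes. They are shown for the subunit pairs of the carboxylases, both of whose members passed the test in 1 pair and only Mccc1 in the other, and for Aldh6a1 of the valine branch. Capitals mark a GC box (GGGCGG) or a CCAAT box (CCAAT), each on either strand. The window of Mccc1 at chr3:36000629-36000928 on the minus strand holds 1 GC box and 3 CCAAT boxes, and that of Mccc2 at chr13:100015590-100015889 on the minus strand holds 3 CCAAT boxes, of which 2 overlap on opposite strands, and no GC box.
Mccc1: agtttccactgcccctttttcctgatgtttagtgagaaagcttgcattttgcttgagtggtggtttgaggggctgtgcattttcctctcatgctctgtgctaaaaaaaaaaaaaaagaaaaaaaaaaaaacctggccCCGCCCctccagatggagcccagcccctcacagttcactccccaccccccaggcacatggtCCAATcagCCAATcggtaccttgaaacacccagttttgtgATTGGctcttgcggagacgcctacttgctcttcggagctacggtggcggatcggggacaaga
Mccc2: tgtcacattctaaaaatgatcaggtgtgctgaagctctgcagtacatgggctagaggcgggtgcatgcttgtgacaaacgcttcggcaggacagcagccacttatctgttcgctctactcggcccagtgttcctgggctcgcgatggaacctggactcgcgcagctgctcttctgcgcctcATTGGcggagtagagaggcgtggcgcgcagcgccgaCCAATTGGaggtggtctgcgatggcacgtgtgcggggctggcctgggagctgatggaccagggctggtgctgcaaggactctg

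Among the 32 windows of the 27 genes, 21 held a CCAAT box and 16 a GC box, against 37.4% and 35.7% of all 32851 windows of the reference. An ETS site (CCGGAAG, either strand) was in 2 of the 32, those of Aldh3a2 and Auh, and in 8.86% of all windows. No window of the 32 held the ERR element AAGGTCA on either strand, where 4.72% of all windows did. A match is a run of letters and was not tested for binding.

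Of the 8 genes for the acyl-CoA steps of isoleucine and valine, 5 fell in high-fat diet against chow and 4 rose in berberine against high-fat diet. Acat1, the mitochondrial thiolase that ends isoleucine breakdown, had 43.1, 44.1 and 47.6 FPKM in berberine, 17.2, 22.5 and 21.9 in high-fat diet and 45.5, 37.9 and 39.8 in chow. Its high-fat diet values were well below all others. Acat1 fell 2.17-fold in high-fat diet against chow (log2 fold change -1.12 ± 0.13, edgeR adjusted p = 0.000706) and rose 2.34-fold in berberine against high-fat diet (1.23 ± 0.14, edgeR adjusted p = 0.000501). Echs1, the short-chain enoyl-CoA hydratase, had 13.5, 14.7 and 16.0 FPKM in berberine, 7.67, 9.65 and 8.91 in high-fat diet and 15.9, 16.8 and 15.2 in chow. Its log2 fold changes were -0.99 ± 0.14 (edgeR adjusted p = 0.00125) in high-fat diet against chow and 0.85 ± 0.14 (edgeR adjusted p = 0.00244) in berberine against high-fat diet.

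Hadh and Acad8 were likewise lowest in high-fat diet. Hadh, a short-chain hydroxyacyl-CoA dehydrogenase, averaged 39.7 ± 5.24 FPKM in berberine, 23.7 ± 3.96 in high-fat diet and 45.9 ± 7.11 in chow (SD, n = 3 each). Acad8, isobutyryl-CoA dehydrogenase of the valine branch, averaged 8.74 ± 0.364 FPKM in berberine, 6.42 ± 0.0852 in high-fat diet and 8.72 ± 1.05 in chow (SD, n = 3 each). Both fell in high-fat diet against chow and rose in berberine against high-fat diet, Hadh at log2 fold changes of -1.08 ± 0.19 and 0.84 ± 0.19 and Acad8 at -0.57 ± 0.14 and 0.54 ± 0.14. The rise of Acad8 lost its call without berberine replicate 3 (edgeR adjusted p = 0.0584). Acads, the short-chain acyl-CoA dehydrogenase that acts on butyryl-CoA, had 45.9, 41.2 and 41.3 FPKM in berberine, 20.9, 36.2 and 36.9 in high-fat diet and 46.7, 69.8 and 56.5 in chow. Its 3 groups did not overlap, with berberine between the other two. Acads fell 2.01-fold in high-fat diet against chow (log2 fold change -1.01 ± 0.25, edgeR adjusted p = 0.0154) and had a log2 fold change of 0.54 ± 0.25 in berberine against high-fat diet (edgeR adjusted p = 0.127).

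The remaining genes of this group, Hsd17b10, Acadsb and Acaa1a, passed no test. Hsd17b10, a mitochondrial hydroxyacyl-CoA dehydrogenase of isoleucine breakdown, stayed between 29.9 and 41.2 FPKM in all 9 libraries. Acadsb, the short/branched-chain acyl-CoA dehydrogenase that acts in the same branch, had 2.21, 5.05 and 1.76 FPKM in berberine, 3.62, 3.12 and 3.64 in high-fat diet and 2.7, 4.82 and 2.08 in chow. Berberine replicate 2 and chow replicate 2 were its highest libraries, and the high-fat diet values lay inside the range of each other group. Acaa1a, a peroxisomal thiolase with a close paralog that can share its reads, had 22.8 FPKM in chow replicate 2 and 11.5 to 15.2 in the others.

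All 3 genes of the valine branch beyond the hydratase fell in high-fat diet against chow. Aldh6a1, the dehydrogenase that turns methylmalonate semialdehyde into propionyl-CoA (chromosome 12, 84430717 to 84451004, minus strand, GRCm38), had 6.26, 5.96 and 5.2 FPKM in berberine, 1.9, 2.84 and 2.46 in high-fat diet and 6.54, 7.31 and 7.76 in chow. The groups did not overlap, and the high-fat diet libraries were far below the other two groups. Aldh6a1 fell 3.27-fold in high-fat diet against chow (log2 fold change -1.71 ± 0.17, edgeR adjusted p = 0.000355) and rose 2.58-fold in berberine against high-fat diet (1.37 ± 0.17, edgeR adjusted p = 0.000806). In berberine against chow its log2 fold change was -0.34 ± 0.17 (edgeR adjusted p = 0.491). Its window nearest the gene's start, chr12:84450975-84451274 on the minus strand, holds 4 CCAAT boxes and no GC box, with the capitals as above.
Aldh6a1: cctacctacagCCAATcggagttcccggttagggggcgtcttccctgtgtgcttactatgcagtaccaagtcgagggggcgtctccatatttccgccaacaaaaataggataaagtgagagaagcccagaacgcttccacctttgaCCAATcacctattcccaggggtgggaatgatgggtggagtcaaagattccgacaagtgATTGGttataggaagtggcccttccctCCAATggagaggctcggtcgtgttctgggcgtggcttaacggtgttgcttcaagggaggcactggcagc

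Hibadh and Hibch are the other two genes of this branch. Hibadh, hydroxyisobutyrate dehydrogenase, had 8.32, 8.69 and 9.47 FPKM in berberine, 6.27, 5.51 and 6.48 in high-fat diet and 9.67, 8.67 and 10.3 in chow. Its high-fat diet values lay below all others, at a log2 fold change of -0.77 ± 0.12 against chow (edgeR adjusted p = 0.00232), and 0.63 ± 0.12 in berberine against high-fat diet (edgeR adjusted p = 0.00528). Hibch, hydroxyisobutyryl-CoA hydrolase, had 2.58, 2.78 and 3.14 FPKM in berberine, 2.33, 2.12 and 2.3 in high-fat diet and 3.84, 2.83 and 2.51 in chow. Its call in high-fat diet against chow (log2 fold change -0.56 ± 0.19, edgeR adjusted p = 0.0484) was lost in 8 of 9 repeats leaving out 1 library, all but the one without chow replicate 3, with adjusted p up to 0.158 and log2 fold changes of -0.59 to -0.40. In berberine against high-fat diet it had a log2 fold change of 0.43 ± 0.19 (edgeR adjusted p = 0.113).

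Propionyl-CoA carboxylase, which joins the valine and isoleucine branches, was lower in high-fat diet in both subunits. Pccb, the carboxyltransferase subunit, had 45.5, 46.1 and 50.0 FPKM in berberine, 19.9, 26.7 and 27.1 in high-fat diet and 51.0, 50.0 and 43.0 in chow. Pcca, the biotin-carrying subunit, had 6.93, 7.49 and 8.28 FPKM in berberine, 3.72, 4.05 and 3.92 in high-fat diet and 8.47, 9.02 and 5.13 in chow. For both subunits each high-fat diet library was below every other library, and chow replicate 3 was the lowest of the chow libraries. In high-fat diet against chow Pccb fell 2.13-fold and Pcca 2.12-fold, at log2 fold changes of -1.09 ± 0.16 (edgeR adjusted p = 0.00154) and -1.08 ± 0.22 (edgeR adjusted p = 0.00711). In berberine against high-fat diet Pccb rose 2.06-fold and Pcca 2.08-fold, with edgeR adjusted p of 0.00193 and 0.00797. Their FPKM ratio was 0.16 ± 0.00709 in berberine, 0.161 ± 0.023 in high-fat diet and 0.155 ± 0.032 in chow (SD, n = 3 each), with exact permutation p of 0.8 to 1. This ratio too was chosen after the values were seen.

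The windows of the carboxylase pair differ in the letters searched. That of Pcca at chr14:122534078-122534377 on the plus strand, the nearest to the gene's start, holds 2 GC boxes and 1 CCAAT box in capitals, and that of Pccb at chr9:101034835-101035134 on the minus strand holds neither.
Pcca: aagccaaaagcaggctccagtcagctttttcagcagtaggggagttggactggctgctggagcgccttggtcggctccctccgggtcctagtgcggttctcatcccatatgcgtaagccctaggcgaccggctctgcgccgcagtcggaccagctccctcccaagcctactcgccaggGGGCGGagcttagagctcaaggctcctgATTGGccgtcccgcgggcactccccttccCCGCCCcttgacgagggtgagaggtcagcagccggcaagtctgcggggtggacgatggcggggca
Pccb: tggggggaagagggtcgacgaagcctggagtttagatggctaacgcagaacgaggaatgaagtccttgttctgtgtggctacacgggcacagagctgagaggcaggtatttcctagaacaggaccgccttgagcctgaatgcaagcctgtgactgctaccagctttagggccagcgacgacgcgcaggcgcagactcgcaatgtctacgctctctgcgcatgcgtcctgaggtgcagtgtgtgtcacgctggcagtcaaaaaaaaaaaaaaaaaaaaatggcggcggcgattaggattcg

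Mcee, methylmalonyl-CoA epimerase, and Mmut, the cobalamin-dependent mutase that makes succinyl-CoA, follow the carboxylase. Mmut had 13.0, 16.0 and 15.2 FPKM in berberine, 8.91, 10.8 and 10.1 in high-fat diet and 17.8, 17.5 and 9.46 in chow. Chow replicate 3 lay among the high-fat diet values. The log2 fold change of Mmut was -0.72 ± 0.24 in high-fat diet against chow (edgeR adjusted p = 0.0523) and 0.67 ± 0.24 in berberine against high-fat diet (edgeR adjusted p = 0.0673). Without chow replicate 3 both comparisons passed, at edgeR adjusted p of 0.00328 and 0.0074 and log2 fold changes of -0.96 and 0.67. DESeq2 called both with all libraries, at adjusted p of 0.0223 and 0.0364. Mcee had 22.2, 22.1 and 32.6 FPKM in berberine, 21.1, 15.7 and 21.7 in high-fat diet and 22.8, 25.5 and 30.1 in chow. Its high-fat diet values were the lowest of the 3 groups without overlap, at a log2 fold change of -0.54 ± 0.23 against chow (edgeR adjusted p = 0.0986).

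**Figure D3:**
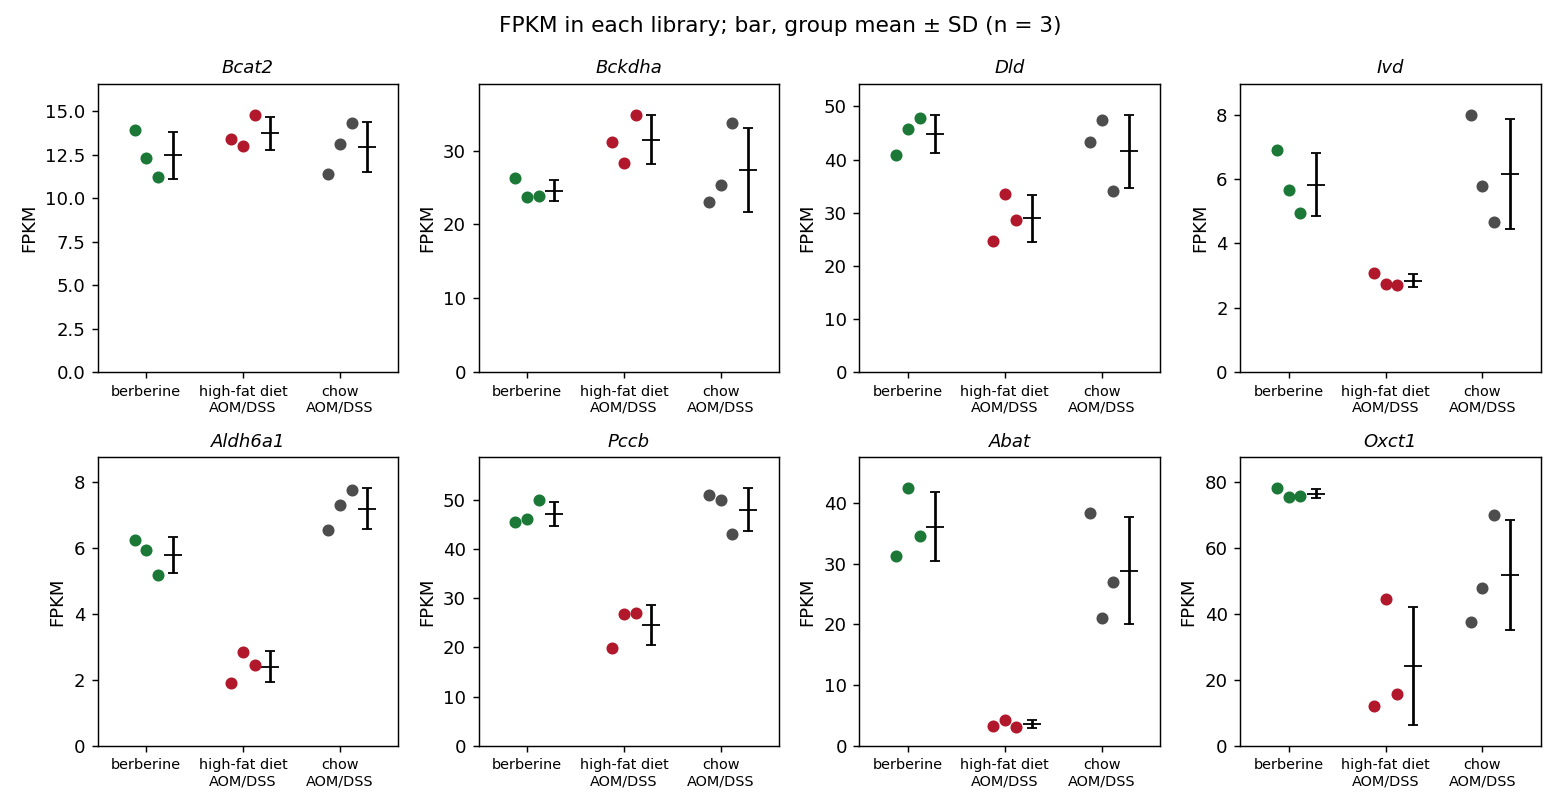
FPKM of 8 genes along the pathway in each library (points) by group (across), with the group mean ± SD (bars, n = 3). Bcat2 overlaps between all groups, Abat has 3.14 to 4.27 FPKM in high-fat diet and 21.1 to 42.4 elsewhere, and Oxct1 has 1 high-fat diet library at 44.6 FPKM.

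Abat had the largest change of the 32 genes in both comparisons with high-fat diet. It encodes the mitochondrial aminotransferase that breaks down the transmitter GABA and also acts on a side product of valine, and lies on chromosome 16 from 8513429 to 8621568, plus strand (GRCm38). Its level was 31.3, 42.4 and 34.5 FPKM in berberine, 3.29, 4.27 and 3.14 in high-fat diet and 38.4, 21.1 and 27.0 in chow. The high-fat diet libraries were many times below all others, and berberine and chow overlapped. Abat fell 8.74-fold in high-fat diet against chow (log2 fold change -3.13 ± 0.23, edgeR adjusted p = 0.000122) and rose 10.8-fold in berberine against high-fat diet (3.44 ± 0.23, edgeR adjusted p = 6.64e-05). In berberine against chow its log2 fold change was 0.31 ± 0.21 (edgeR adjusted p = 0.626).

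The 4 aldehyde dehydrogenases listed with the pathway oxidise many aldehydes, and in berberine against high-fat diet 2 of them rose and 1 fell. Aldh2, the mitochondrial enzyme best known for clearing acetaldehyde, was the most abundant of the 33 genes at a mean of 146 FPKM over the 9 libraries. It had 172, 188 and 195 FPKM in berberine, 98.5, 71.3 and 51.5 in high-fat diet and 221, 139 and 176 in chow. No high-fat diet value reached the other groups. Aldh2 fell 2.63-fold in high-fat diet against chow (log2 fold change -1.39 ± 0.24, edgeR adjusted p = 0.00353) and rose 2.7-fold in berberine against high-fat diet (1.43 ± 0.24, edgeR adjusted p = 0.00319). Aldh9a1, an enzyme of carnitine synthesis, averaged 14.5 ± 0.447 FPKM in berberine, 10.6 ± 0.706 in high-fat diet and 14.4 ± 1.4 in chow (SD, n = 3 each). Its log2 fold changes were -0.57 ± 0.13 in high-fat diet against chow (edgeR adjusted p = 0.0108) and 0.55 ± 0.13 in berberine against high-fat diet (edgeR adjusted p = 0.0122).

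Aldh7a1, an enzyme of lysine breakdown, ran the other way. It had 2.82, 3.18 and 3.19 FPKM in berberine, 6.53, 5.41 and 4.52 in high-fat diet and 4.2, 3.06 and 3.73 in chow. All high-fat diet values lay above all others. Aldh7a1 fell 1.66-fold in berberine against high-fat diet (log2 fold change -0.73 ± 0.17, edgeR adjusted p = 0.0113), and its log2 fold change was 0.46 ± 0.17 in high-fat diet against chow (edgeR adjusted p = 0.0625). The second value passed without high-fat diet replicate 3 (log2 fold change 0.58, edgeR adjusted p = 0.0426) and with all libraries by DESeq2 (adjusted p = 0.0401). Aldh3a2, the fatty aldehyde dehydrogenase, averaged 18.9 ± 0.761 FPKM in berberine, 16.7 ± 1.08 in high-fat diet and 17.3 ± 2.88 in chow (SD, n = 3 each) and passed no test.

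Oxct1, the transferase that activates ketone bodies for oxidation (chromosome 15, 4026383 to 4155344, plus strand, GRCm38), was even in berberine and spread widely elsewhere. It had 78.0, 75.4 and 75.7 FPKM in berberine, 12.1, 44.6 and 15.6 in high-fat diet and 37.4, 47.9 and 69.9 in chow. High-fat diet replicate 2 lay inside the chow range, and the berberine libraries were above all others. Oxct1 rose 3.42-fold in berberine against high-fat diet (log2 fold change 1.77 ± 0.45, edgeR adjusted p = 0.0192). That call was lost without high-fat diet replicate 3 (1.54, edgeR adjusted p = 0.0596) and the fold change was larger without high-fat diet replicate 2 (2.55, edgeR adjusted p = 0.00158). In high-fat diet against chow its log2 fold change was -1.23 ± 0.45 (edgeR adjusted p = 0.0652), and -2.0 without high-fat diet replicate 2 (edgeR adjusted p = 0.00331). DESeq2 called this change with all libraries (adjusted p = 0.0161).

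**Figure D4:**
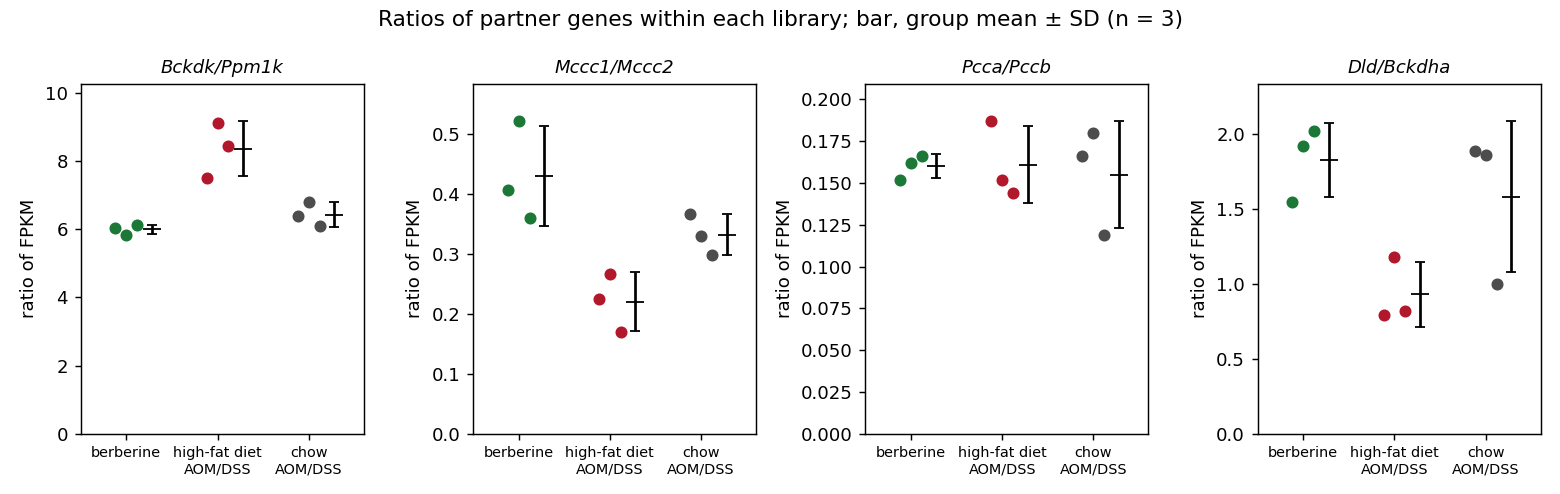
Ratio of FPKM between partner genes within each library (points) by group (across), with the group mean ± SD (bars, n = 3). Bckdk over Ppm1k is 7.51 to 9.12 in high-fat diet and 5.84 to 6.8 elsewhere, Mccc1 over Mccc2 is lowest in high-fat diet, Pcca over Pccb overlaps in all groups, and Dld over Bckdha is lower in high-fat diet than in berberine.

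Set against the decarboxylase subunit, Dld had an FPKM ratio to Bckdha of 1.83 ± 0.245 in berberine, 0.932 ± 0.217 in high-fat diet and 1.58 ± 0.502 in chow (SD, n = 3 each). Chow replicate 3, at 1.0, was inside the high-fat diet range of 0.791 to 1.18. The exact permutation p was 0.1 for berberine against high-fat diet and 0.2 for high-fat diet against chow, and this ratio was chosen after the values were seen. Other complexes use Dld as well, among them pyruvate and oxoglutarate dehydrogenase and the glycine cleavage system. Of 8 tested genes specific to those complexes, 2 fell in high-fat diet against chow (Pdha1 and Ogdh) and 2 rose (Amt and Gcsh). Of all tested genes, 16.6% fell and 15.2% rose. In berberine against high-fat diet, Ogdh rose at a log2 fold change of 0.67 ± 0.16 (edgeR adjusted p = 0.0132) and Amt fell by 1.41 on the log2 scale (edgeR adjusted p = 0.0075).

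The other pathway enzymes considered had no call in the opposite direction in either comparison with high-fat diet. Of 13 tested, 7 fell and 0 rose in high-fat diet against chow, and 6 rose and 0 fell in berberine against high-fat diet. Of all tested genes, 16.6% fell and 15.2% rose in the first comparison, and 15.8% rose and 14.9% fell in the second. Aldh1b1, a mitochondrial aldehyde dehydrogenase, had log2 fold changes of -2.91 ± 0.26 (edgeR adjusted p = 0.000254) in the first comparison and 2.41 ± 0.26 (edgeR adjusted p = 0.000449) in the second. Acaa2, Hadhb and Acadm, enzymes of mitochondrial fatty acid oxidation, fell by 1.81, 1.44 and 1.18 on the log2 scale in high-fat diet against chow and rose by 0.96, 1.11 and 0.98 in berberine against high-fat diet. The citric acid cycle, which takes up the pathway's products, had 9 of 14 genes lower and 0 higher in high-fat diet against chow, with 8 higher and 0 lower in berberine against high-fat diet. Citrate synthase, Cs, had log2 fold changes of -0.99 ± 0.14 (edgeR adjusted p = 0.00137) and 1.0 ± 0.14 (edgeR adjusted p = 0.00132) in those comparisons.

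Carriers of branched-chain amino acids showed the opposite order in part. Of 7 tested, 4 rose and 1 fell in high-fat diet against chow, and 1 rose and 2 fell in berberine against high-fat diet. Of all tested genes, 15.2% rose and 16.6% fell in the first comparison, and 15.8% rose and 14.9% fell in the second. Slc7a5, the exchanger LAT1 that imports leucine, had 5.36, 4.13 and 4.14 FPKM in berberine, 19.5, 18.4 and 12.1 in high-fat diet and 4.11, 3.91 and 3.95 in chow. Its high-fat diet values lay far above all others, at a log2 fold change of 1.93 ± 0.19 against chow (edgeR adjusted p = 0.000326). Slc7a8, a related exchanger, had 1.58, 1.31 and 1.02 FPKM in berberine, 36.3, 8.4 and 10.3 in high-fat diet and 1.78, 1.06 and 2.59 in chow. Slc6a14, a sodium- and chloride-coupled importer of neutral and cationic amino acids, had 61.2, 109 and 126 FPKM in berberine, 16.0, 23.6 and 9.09 in high-fat diet and 133, 143 and 65.3 in chow. It fell by 2.95 on the log2 scale in high-fat diet against chow (edgeR adjusted p = 0.00221) and rose by 2.72 in berberine against high-fat diet (edgeR adjusted p = 0.00306).

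Of 15 tested genes for the pathway's cofactors and electron transfer, 2 fell and 0 rose in high-fat diet against chow. Of all tested genes, 16.6% fell and 15.2% rose. The 2 were Etfb, a subunit of the flavoprotein that takes electrons from the acyl-CoA dehydrogenases, and Mmab, of cobalamin handling. In berberine against high-fat diet 2 of the 15 rose and 0 fell, where 15.8% of all tested genes rose and 14.9% fell. Etfdh, which passes the flavoprotein's electrons on to ubiquinone, was 1 of these, at a log2 fold change of 0.74 ± 0.24 (edgeR adjusted p = 0.0496). A list of regulators of mitochondrial and lipid genes that also holds the lipogenic enzyme Acly had 8 tested genes. Beside the same shares of all tested genes, 5 fell and 1 rose in high-fat diet against chow. In berberine against high-fat diet 5, Acly among them, rose and 1 fell. Ppargc1a, a coactivator of mitochondrial genes, had 3.79, 5.75 and 4.44 FPKM in berberine, 2.06, 2.27 and 2.11 in high-fat diet and 7.12, 5.02 and 5.54 in chow. Its log2 fold change was -1.57 ± 0.18 in high-fat diet against chow (edgeR adjusted p = 0.000627) and 1.21 ± 0.18 in berberine against high-fat diet (edgeR adjusted p = 0.00195). No gene of these lists passed the test in berberine against chow.

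Scaling by library totals in place of TMM moved the median log2 fold change of all tested genes in high-fat diet against chow to 0.13 and in berberine against high-fat diet to -0.115, against 0.002 and -0.007 with TMM. Of the genes called in high-fat diet against chow, 59.9% were higher under library totals and 47.7% under TMM, and in berberine against high-fat diet 41.0% and 51.4%. Among the 32 pathway genes library totals gave 14 lower and 1 higher in high-fat diet against chow, and 15 higher and 1 lower in berberine against high-fat diet. None of these 32 genes that was called in either comparison changed sign there under any alternative tried.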

How the data were processed

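RNA of 9 colonic libraries (3 berberine, 3 high-fat diet with AOM/DSS, 3 chow with AOM/DSS) was sequenced as stranded poly(A) libraries with molecular identifiers, per the labels' protocols. For every gene and library the deposited table lists, per the file headers, FPKM beside an estimated count. The submitters' processing notes name StringTie 1.3.4d, HISAT2 2.0.4, cutadapt 1.9, edgeR, DESeq2 and UMI-tools and the build GRCm38; which step each served is not given in the sources used here.

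The deposited estimated counts are whole numbers and were not normalised. Among counts of 1 to 20, 38.5% were multiples of 4, so 1 fragment may be worth about 4 counts. Totals were 51961764 to 69007117 counts per library. Within each group no library duplicated another, and no library of any group had the same total as another.

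edgeR 4.0.16 (quasi-likelihood, TMM, R 4.3.3) was fitted to the counts of all 9 libraries for the 14506 genes whose mean FPKM was 1 or more, which hold 98.9% of counts, and p-values were adjusted by Benjamini-Hochberg over all of them. Genes with an adjusted p under 0.05 are said to have risen or fallen. SE is the log2 fold change divided by the square root of the F statistic. Levels are the deposited FPKM. Ratios of 2 genes within a library were tested by exact two-sided permutation. Alternatives were DESeq2 1.42.0, limma 3.58.1 on log2(FPKM + 1) and log2(FPKM + 0.1), other scaling and filters, counts divided by 4, a replicate block, and leaving libraries out. The edgeR fit was checked on simulated counts. All 33 genes are accounted for. From each other list, up to 4 tested genes with the smallest p per comparison could be named. The gene list uses no measured value, but it and the other lists were chosen with earlier results of these data known. Promoters came from RefSeq by symbol. The reads behind close paralogs such as Acaa1a may be split.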

Additional observations from a re-analysis of the deposited data

How the results depend on the processing

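Of the 17 genes lower in high-fat diet against chow, 13 were called in each of the 19 listed alternatives that tested them (genes under 5 FPKM drop out of 1); Dbt, Dld, Mccc1 and Hibch were not. Of the 16 called in berberine against high-fat diet, 14 were called in each likewise and Acad8 and Oxct1 were not, and berberine against chow gave 0 of the 32 in each. Leaving out 1 library at a time gave 13 to 18 calls among the 32 genes in high-fat diet against chow and 15 to 18 in berberine against high-fat diet. With berberine replicates 1 and 2 left out, an alternative chosen after seeing the data, 7 of the 32 were called against 16, and 1321 genes in all against 4460; chow replicates 2 and 3 left out gave 2001 in high-fat diet against chow, against 4613. A group left with a single library takes its spread from the other groups, and fewer libraries enter both fits. Restricting the test to means of at least 5 FPKM, and so to fewer genes, gave 2987 genes in high-fat diet against chow and 2848 in berberine against high-fat diet. Leave-one-out counts over all genes in berberine against high-fat diet ran from 2960 (without berberine replicate 2) to 4740 (without chow replicate 3). In berberine against chow the 7 genes became 380 with DESeq2, 2 with counts divided by 4, with relative log expression, with the replicate block and with 2 groups only, 3 without berberine replicates 1 and 2, 1 without chow replicates 2 and 3, and 1 to 7 leaving out 1 library; the cause was not tested.

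Replicate numbers are not stated to pair the libraries. Deviations from the group means correlated at -0.099 to 0.16 between same-numbered libraries and at -0.219 to 0.16 between others. With 3 libraries a group, these correlations cannot show whether same-numbered libraries share a batch or a pairing. Not every library correlated best with its own number. With the replicate block 15 of the 32 genes were called in high-fat diet against chow and 16 in berberine against high-fat diet, and 4344, 4286 and 2 genes in all in the 3 comparisons.

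The lowest count among the 32 genes was 681 (Ppm1k). Bcat1, at 66 to 275 counts, was below the filter. With 3 libraries per group, the smallest exact p of a ratio test is 0.1.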

Other observations

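Acadsb, Acaa1a and Acads had their highest or second highest level in chow replicate 2, at 4.82, 22.8 and 69.8 FPKM. The Acadsb level of berberine replicate 2 was 5.05 FPKM, while berberine replicates 1 and 3 had 2.21 and 1.76 FPKM. These genes were singled out after their values were seen.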
